A study of Arabidopsis thaliana with 8 samples.

Results

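The wild-type baseline of this study is a pair of Affymetrix ATH1 arrays, Col-0 A and Col-0 B, out of 8 arrays in the series. The 2 arrays were taken by their sample titles, and the 22746 probe sets that are not Affymetrix controls were ranked by the mean of their 2 log2 signals. Both samples were wild-type Arabidopsis thaliana of the Col-0 accession with no transgene, grown on soil under 8 h of light and 16 h of dark at 23 °C. Vegetative apices were dissected with their leaf primordia from plants of 20 days, and total RNA was labelled with biotin. The other 6 arrays hold 35S:GIF1, rGRF3 and rGRF3x35S:GIF1 plants and are used here only to follow array letters, with no contrast between genotypes. The labels do not say how many plants were pooled, or whether A and B were separate cultures.

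The vegetative shoot apex carries a small meristem whose dividing cells form leaf primordia on its flanks. Primordia grow first by division, which needs ribosomes and chromatin, while their plastids turn into chloroplasts that use proteins encoded in both the plastid and the nucleus. Transcripts used as markers of reproductive organs and of roots are known mainly from other parts of the plant, but need not be confined to them.

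Both arrays spanned the same range of signal. Values ran from 2.12 to 15.5 on Col-0 A and from 2.12 to 15.3 on Col-0 B, on a log2 scale. The lowest value was shared by 5297 probe sets on A and 5290 on B, so it acts as a floor, and probe sets within 0.1 of it are called "at the floor" here. On both arrays together 6673 probe sets, or 29.3%, were at the floor, 13492 (59.3%) had a log2 signal of at least 4, here called detected, and 2581 (11.3%) met neither condition. The 420 probe sets at 12 or more on both arrays formed the top of the distribution. The level of a probe set depends on its probes as well as on its transcript, so the order of genes is an order of signals and not of transcript numbers. Among 144 genes with several probe sets of their own, the highest and lowest probe set differed by a median of 1.59 on the log2 scale, and 14 of these genes had 1 probe set at the floor and another detected. A fall in signal in such whole tissue cannot tell fewer cells of a type from less RNA per cell.

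The platform annotation lists exactly 1 gene for 13513 probe sets, several for 503 and no gene for 8730. Genes were taken from the first set, with the highest probe set where a gene had several, which gave 13286 genes. Probe sets with no gene listed had higher signals, with a median of 6.82 against 5.13 for those with 1 gene, and 21.2% against 34.5% of them were at the floor. Among the 100 strongest probe sets 59 lacked a listed gene, 9 matched several and only 32 matched a single one. The strongest of all, at 15.51 on A and 15.34 on B, has no gene listed. The named genes are thus a part of the apex transcriptome that leaves out most of its strongest signals.

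Genes for making proteins and for photosynthesis took most of the top places among named genes. Of the 25 strongest, 14 were in a list of cytosolic ribosomal protein genes, 5 were encoded in the plastid, 4 were nuclear photosynthesis genes and 1 was a chlorophyll synthesis gene. Of the 100 strongest, 57, 14, 7 and 1 were in these groups, and 21 were in none of them. The groups had 133, 69, 11 and 6 measured genes among the 13286. Thus 42.9%, 20.3%, 63.6% and 16.7% of their measured genes were in the top 100. Coverage was uneven, with 133 of 236 listed ribosomal protein genes measured against 11 of 59 photosynthesis genes. The counts therefore do not rank the groups against each other. No table was at hand to check the ribosomal protein list, which rests on general knowledge, so its members are given by locus.

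**Figure D1:**
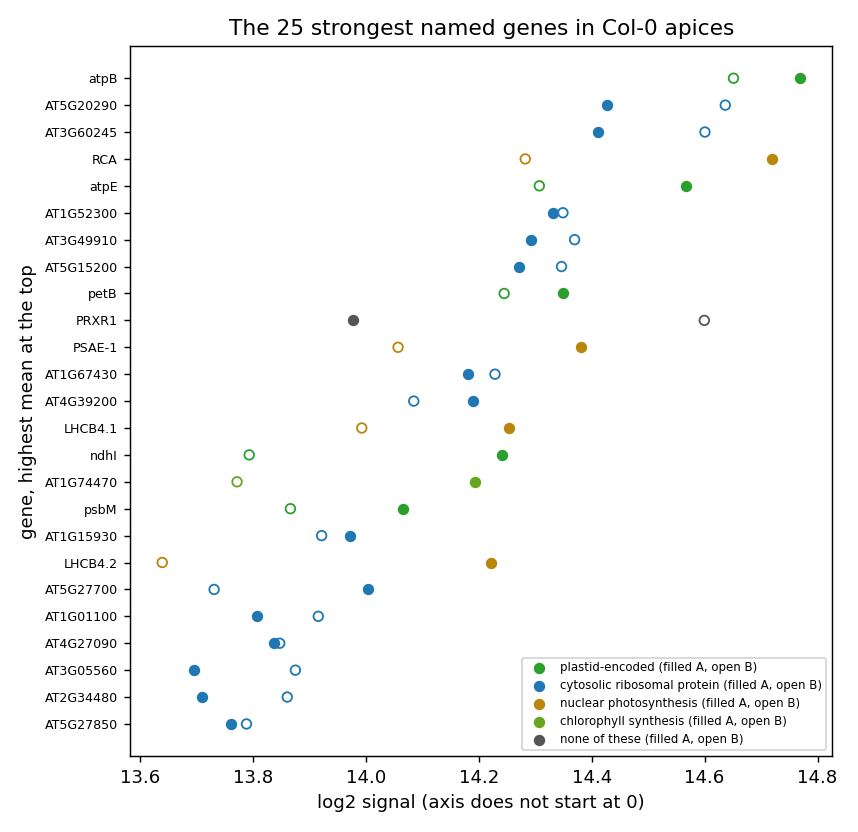
Log2 signal (horizontal axis, not starting at 0) of the 25 named genes with the highest mean on the 2 Col-0 arrays, 1 gene per row, with array A as filled and array B as open circles, coloured by gene group. All plastid, photosynthesis and chlorophyll genes lie lower on B, while 11 of the 14 ribosomal protein genes lie higher on B.

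The strongest named signal was atpB, the plastid gene for the beta subunit of the chloroplast ATP synthase, at 14.77 on A and 14.65 on B. Next to it in the plastid operon, atpE, for the epsilon subunit, had 14.57 and 14.31. The cytochrome b6 gene petB had 14.35 and 14.25, the NADH dehydrogenase-like gene ndhI 14.24 and 13.79, and psbM, for a small photosystem II subunit, 14.07 and 13.87. For all 5 the 2 arrays lay within 0.45 of each other, and A was the higher. Adjacent plastid genes did not always have like signals. The gene petD, the locus next to petB, was at the floor, at 2.13 on A and 2.12 on B.

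RCA, which encodes the activase that frees Rubisco from inhibiting sugars, was the strongest nuclear photosynthesis gene, at 14.72 on A and 14.28 on B (mean 14.5 ± 0.31, SD, n = 2). PSAE-1, for a stromal subunit of photosystem I, had 14.38 and 14.06. LHCB4.1 and LHCB4.2, for minor antenna proteins of photosystem II, had 14.25 and 13.99, and 14.22 and 13.64. Their relative LHCB4.3 stood far lower, at 8.19 and 7.25, the lowest of the 11 measured photosynthesis genes. SBPASE, for the sedoheptulose bisphosphatase of the Calvin cycle, was the next lowest, at 12.67 and 11.92. The list's median was 13.1 against 5.18 over all named genes, and 8 of its 11 measured members were at 12 or more on both arrays. Only 11 of its 59 members have a named probe set, so the Rubisco small subunit and most antenna genes were not analysed here.

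Chlorophyll synthesis followed the same order of magnitude. AT1G74470, which the gene table names geranylgeranyl reductase, the enzyme that makes the phytol tail, had 14.19 on A and 13.77 on B. CHLM, the magnesium protoporphyrin methyltransferase gene, had 12.72 and 11.98, and PORB, for a light-dependent protochlorophyllide reductase, 12.05 and 11.76. GSA1, for an early enzyme of tetrapyrrole synthesis, had 11.68 and 11.17. The lowest of the 6 measured members, HEMB1 and CHLI2, had 11.54 and 11.1, and 10.26 and 9.83. All 6 were thus detected well above the median of named genes.

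Among cytosolic ribosomal protein genes the strongest were AT5G20290, at 14.43 on A and 14.64 on B, AT3G60245, at 14.41 and 14.6, AT1G52300, at 14.33 and 14.35, and AT3G49910, at 14.29 and 14.37. Of 133 measured members, 117 were detected on both arrays and 75 were at 12 or more on both. Of all 13286 named genes 7219 were detected on both arrays, which is the background for the detected counts here and below. Of the 12293 protein-coding genes 153 were at 12 or more on both. The median was 12.55. At the other end 9 members were at the floor on both arrays, among them AT5G24510 and AT5G09490, the last of the list, at 2.12 on each array. Arabidopsis has several gene copies for nearly every ribosomal protein, and the list spans the whole signal range from floor to top. Near-identical copies can share probes, which bears on the level of each copy.

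Plastid-encoded genes covered a similar span. Of 69 named genes, 64 were detected on both arrays, 20 were at 12 or more on both, and the median was 11.3. The medians of the ATP synthase (12.1), ribosomal protein (11.8), photosystem I (11.6) and photosystem II (11.2) groups were the higher ones. The 4 RNA polymerase genes had a median of 9.94, the 6 cytochrome b6f genes 8.46 and the 10 NADH dehydrogenase-like genes 7.59. Each group held wide differences, such as 4.3 to 14 among the 15 photosystem II genes. The 3 genes petD, rps14 and ndhF were at the floor on both arrays. The gene for the Rubisco large subunit, rbcL, had 8.24 on A and 7.52 on B, and psbA, for the D1 protein of photosystem II, had 6.98 and 6.46. These genes were picked after their values were seen because they are known for abundant transcripts in green leaves. Their signals lay below the plastid median. This orders signals and not transcript numbers, so it does not show that their transcripts were scarce.

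Of the 21 genes in the top 100 outside these groups, PRXR1, a peroxidase gene, was the strongest, at 13.98 on A and 14.6 on B. GAPC2, for a cytosolic glyceraldehyde phosphate dehydrogenase of glycolysis, had 13.43 and 13.67. TUA6, for an alpha-tubulin, had 12.68 and 13.12, and SAMDC, for the S-adenosylmethionine decarboxylase of polyamine synthesis, 13.26 and 12.34. The lists are not complete, so some of the 21 can belong to photosynthesis or the plastid. By their names these include PSB27, at 13.26 on A and 12.87 on B, and AT4G01150, also named CURVATURE THYLAKOID 1A, at 13.16 and 12.8. GAPC2, SAMDC, PSB27 and AT4G01150 were picked from the top 100 after their values were seen. PRXR1 is the gene of the top 25 with the widest gap between its arrays, 0.62.

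Of the lists for histones, mitosis and DNA replication, 9 of 39, 3 of 23 and 1 of 20 genes were measured, and 8, 3 and 1 of these were detected on both arrays. HTB4 and HTB2, histone H2B genes, had 12.19 on A and 12.69 on B, and 11.02 and 11.55. The loci AT1G06760 and AT2G30620 of the histone list had 10.78 and 11.25, and 11.03 and 10.74. HIS1-3, for a linker histone, was the only one of 9 measured histone genes below detection, at 2.79 and 2.13. All 7 named tubulin genes were detected, from TUA6 down to TUB1 (8.44 and 9.06) and TUA1 (7.67 and 7.47). The Aurora kinases of mitosis, AUR1, AUR2 and AUR3, had 7.72 and 8.09, 8.6 and 8.78, and 6.96 and 6.87. PRL, which encodes the MCM7 subunit of the replicative helicase, had 8.92 and 10.21 and was the 1 measured DNA replication gene. Of the 8 CHR chromatin remodelling genes 4 were detected, led by CHR17 at 9.16 and 9.95, and the family median was 4.6. That share is close to the 7219 of 13286 for all named genes.

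**Figure D2:**
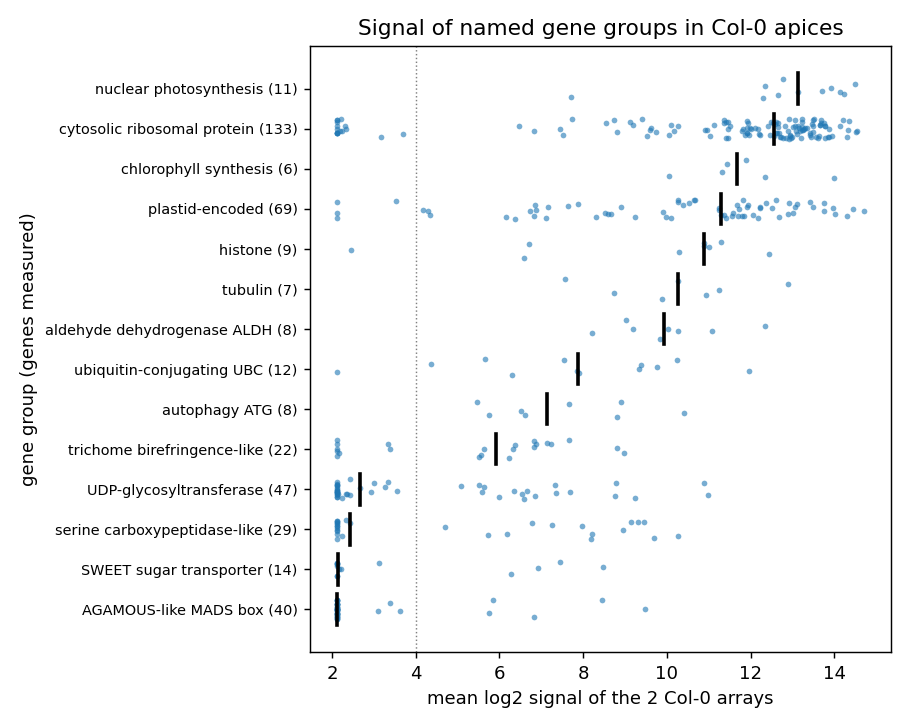
Mean log2 signal of the 2 Col-0 arrays (horizontal axis) for each measured gene of 14 gene groups, 1 point per gene, with a bar at the group median and a dotted line at the detection level of 4. Medians run from 13.1 for nuclear photosynthesis to 2.12 for AGAMOUS-like MADS box genes, and the ribosomal protein and plastid groups reach from the floor to the top.

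The tissue label was checked against marker genes, few of which have a named probe set. Leaf primordium markers were present: YAB3, a YABBY gene of the abaxial side, had 8.77 on A and 8.49 on B, PHV, a class III HD-ZIP gene of the adaxial side, 7.86 and 8.25, and YAB5 6.79 and 6.71. JAG, a zinc-finger gene of organ growth, was below detection at 3.27 and 3.19. The stomatal lineage regulators SPCH (8.04 and 7.99), FMA (5.99 and 5.52) and MUTE (4.82 and 4.29) were all detected. TRY, a trichome patterning repressor, had 6.02 and 5.35.

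All 3 named meristem markers were at the floor on both arrays: CLV3, the stem cell peptide gene, LAS, of axillary meristems, and UFO, an F-box gene. The other 12 of the 15 listed, STM and WUS among them, have no named probe set, so a meristem signal could not be shown with this list. Of the flower list, SPL and AMS were at the floor and AT5G07230 had 2.56 and 2.12, which leaves 0 of 3 detected. Root hair expansin genes EXPA7 and EXPA18 were at the floor, while PYK10, a beta-glucosidase gene listed as a root marker, was strong at 11.65 and 12.2. Of the pollen list, ACT12 was at the floor and ACT11, an actin gene, had 8.26 and 8.71. No member of the seed and vasculature lists had a named probe set. The GRF and GIF genes, the subject of the study, have no named probe set either and were not analysed here.

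At the floor, pseudogenes stood out. Of 989 loci that the gene table classes as pseudogenes, many of which are transposon remnants in this genome, 895 (90.5%) were at the floor on both arrays, against 34.4% of all named genes and 29.9% of the 12293 protein-coding genes. Only 24 pseudogenes were detected on both arrays. The strongest, picked after their values were seen, were AT1G35612, at 8.9 on A and 7.69 on B, and AT1G80020, at 7.88 and 8.45.

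Among families of protein-coding genes, the AGAMOUS-like MADS box factors, many of which act in flowers, seeds and gametophytes, had 32 of 40 members (80%) at the floor. The exceptions were led by AGL26, at 9.61 and 9.34, and by AGL24, a flowering regulator active in the shoot apex, at 8.47 and 8.41. Members were collected by gene symbol alone. Whether each of them, AGL26 included, encodes a MADS box factor was not checked. AGL16 (7.09 and 6.57) and AGL87 (6.32 and 5.39) came next. No AGAMOUS-like gene reached 12. The LCR cysteine-rich peptide genes, related to defensins, comprised LCR69 (11.73 and 11.8), LCR68 (11.14 and 11.1) and 6 members (75%) at the floor.

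Of 14 SWEET sugar transporter genes 9 (64.3%) were at the floor, and SWEET17, for a vacuolar fructose carrier, was the strongest at 7.72 and 9.24. It was followed by SWEET1 (7.44 on both arrays). Among glutamate receptor-like channel genes 4 of 7 were at the floor, with GLR3.3 the highest at 7.12 and 7.5. Tetraspanin genes, for membrane scaffold proteins, had 8 of 15 at the floor, and TET7 was the highest at 9.21 and 9.26. All 3 families thus held a few detected members beside many at the floor.

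Wall and secondary metabolism families had shares nearer to that of all named genes. Glycosyl hydrolase GH9 genes had 7 of 15 at the floor, XTH genes, which cut and rejoin xyloglucan, 4 of 9, and alpha-expansins 4 of 10, with EXPA4 the highest at 9.29 and 9.41. Cytochrome P450 genes of the CYP71B group had 8 of 19 at the floor, serine carboxypeptidase-like genes 12 of 29, UDP-glycosyltransferases 18 of 47 and beta-glucosidases 6 of 20. The strongest members counted included scpl26 (10.45 and 10.1), UGT78D1 (10.44 and 11.54), UGT88A1 (10.84 and 10.91) and BGLU44 (11.05 and 11.89). PYK10, a beta-glucosidase gene under another symbol, was not counted and was higher than BGLU44, at 11.65 and 12.2. UF3GT, also named UGT79B1, was likewise not counted among the UDP-glycosyltransferases.

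Several families had few or no members at the floor. The 8 aldehyde dehydrogenase genes, 8 autophagy genes (ATG3 and copies of ATG8), 12 ubiquitin-specific protease genes and 7 tubulin genes had 0 members there. Ubiquitin-conjugating enzymes had 1 of 12, UBC31, at the floor and UBC28 at 12.38 and 11.54. Vacuolar protein sorting genes had 1 of 10 and prenylated Rab acceptors 1 of 11. A low share at the floor did not always go with detection: of the 8 OTP genes, for organelle transcript processing, 2 were at the floor and only 2 were detected on both arrays. ALDH11A3, for a glyceraldehyde phosphate dehydrogenase that does not phosphorylate, was the strongest of its family at 12.36 and 12.33.

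**Figure D3:**
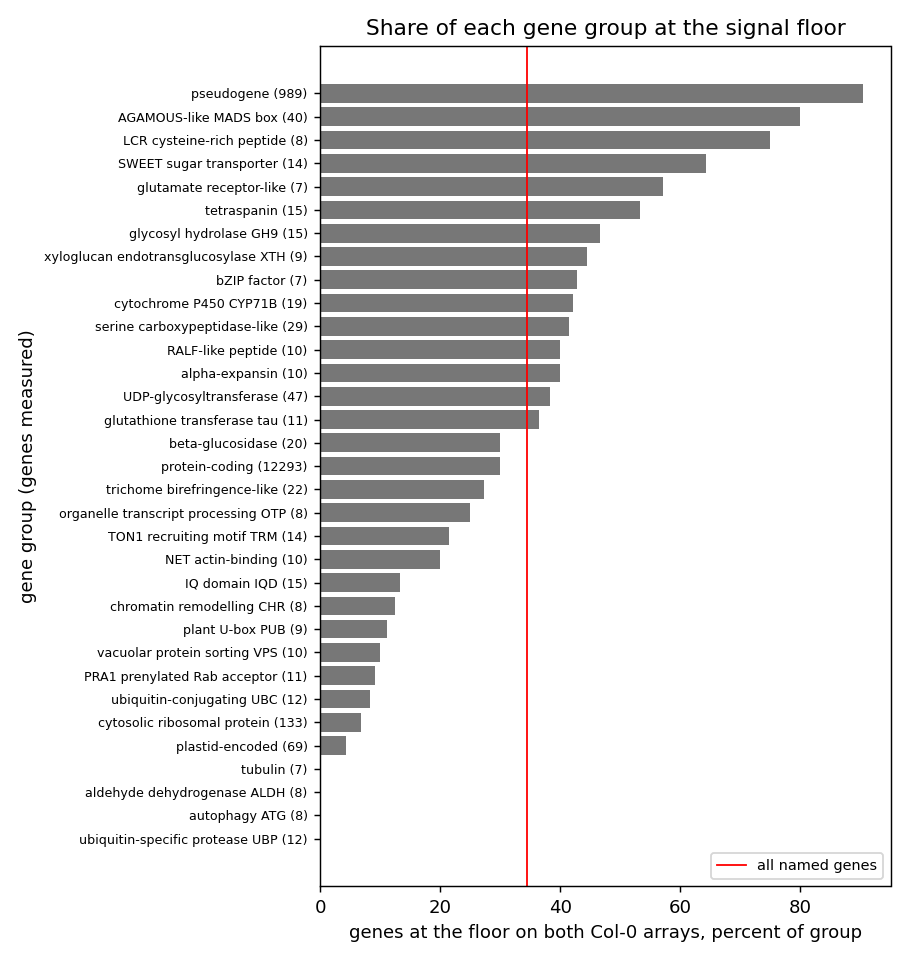
Percent of the genes of each group at the floor on both Col-0 arrays (bars from 0), with the number of genes measured in brackets and a red line at 34.4%, the share of all named genes. Pseudogenes (90.5%) and AGAMOUS-like genes (80%) lead, and 4 families have no gene at the floor.

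Position and size of a gene also went with being at the floor. The share of named genes at the floor was 42.7% on chromosome 2 and between 30.8% and 34.5% on chromosomes 1, 3, 4 and 5. Chromosome 2 also had the highest share of pseudogenes among its named genes, 13.7% against 3.92% to 8.99%, and among protein-coding genes alone its share at the floor was 34.4% against 28.5% to 29.9%. Of nuclear protein-coding genes, the 3059 shortest, with gene lengths up to 1431 bases, had 55% at the floor, and the 3056 longest, from 3030 bases, had 15.6%. Among 5814 pairs of adjacent protein-coding genes with both measured, the next gene was at the floor in 40.9% of cases where the first was, and in 25.2% where it was not. These values describe genes of 1 tissue, and neighbours of one family can share probe sequence.

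The ranks of the 2 arrays agreed closely over all probe sets and less closely among those detected. Spearman's rho across the 22746 probe sets was 0.98 and Pearson's r was 0.984. Both are across genes, which are not independent replicates, and the floor shared by both arrays enters them. Across the 13492 probe sets detected on both arrays rho was 0.942. The median shift in rank among these was 3.92 percentile points, with 57.5% shifting by under 5 points and 5.06% by over 20. Of the probe sets at the floor on A, 96.1% were at the floor on B, and 96.7% the other way. A jump from the floor on 1 array to detection on the other occurred for 17 probe sets at the floor on A and for 6 at the floor on B.

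The lists of the strongest genes overlapped without a steady trend in list size. Of the 25 strongest named genes of each array 20 were shared, of the 50 strongest 46, of the 100 strongest 88 and of the 500 strongest 424. The differences in signal were smaller at the top. Between log2 4 and 12 the median absolute difference of the arrays stayed between 0.297 and 0.303 in each interval of 2 units, and it was 0.237 among the 477 probe sets with a mean of 12 or more. A difference of over 1 was seen in 3.73% to 5.13% of detected probe sets per direction and interval from 4 to 12. At 12 or more it was seen in 1.26% to 1.68% per direction.

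**Figure D4:**
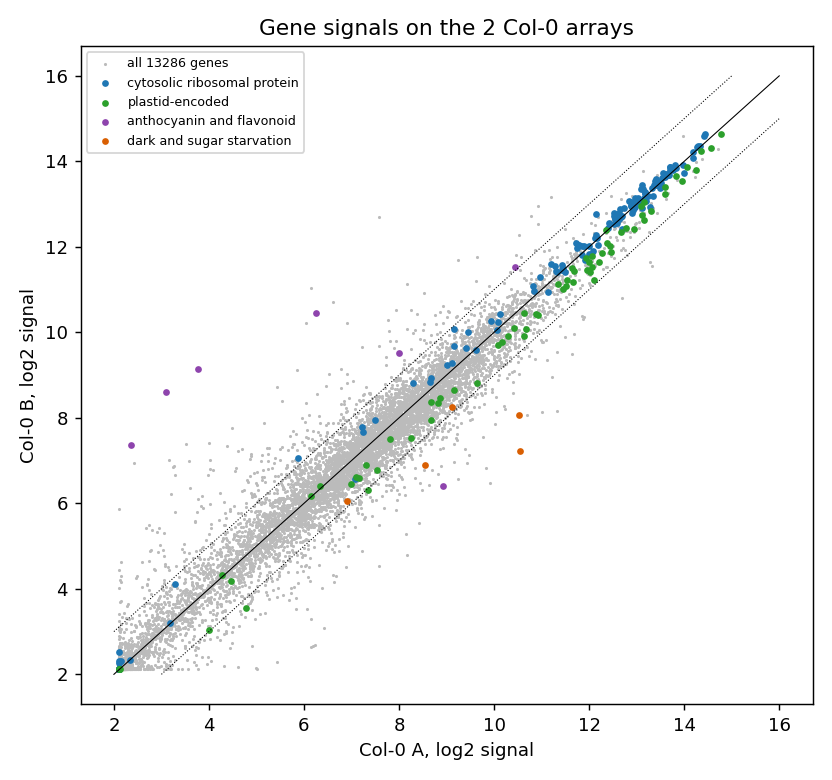
Log2 signal on Col-0 A (horizontal) against Col-0 B (vertical) for the 13286 named genes (grey), with 4 gene groups coloured, a solid line of equality and dotted lines 1 unit to either side. Ribosomal protein genes lie along the line, and plastid genes mostly just under it, while 6 of 7 anthocyanin genes lie above the upper dotted line and 3 of 5 starvation genes below the lower one.

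The arrays nevertheless differed in named sets of genes. With 1 array per letter there is no replicate check and no test, and a difference of over 1 on the log2 scale is used as a size threshold. Of 13981 probe sets detected on at least 1 of the arrays, 738 (5.28%) were higher on B by more than 1 and 663 (4.74%) lower. This filter lets in probe sets through the array where they are high. Of the 738, 156 were under detection on A, and of the 663, 100 were under detection on B. With detection required on both arrays the counts were 582 higher and 563 lower. Among the 7484 named genes detected on at least 1 array the shares were 4.3% higher and 4.6% lower, with a median difference of -0.02. With no threshold, 47.2% of these genes were higher on B and 52.3% lower, which is the background for the counts by direction that follow. The gene lists were chosen with earlier results of these data known. Counts within a list therefore describe its members and are no independent support for a theme.

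Of the 7 measured genes of the anthocyanin and flavonoid list 6 were over 1 higher on B. UF3GT, for a glycosyltransferase that adds xylose to anthocyanins, had 3.1 on A and 8.6 on B, AT5MAT, for a malonyltransferase, 2.35 and 7.38, and DFR, for the dihydroflavonol reductase at the start of the anthocyanin branch, 6.25 and 10.44. The locus AT4G14090 of the same list had 3.77 and 9.13. UGT78D1 and UGT78D2, for flavonoid glycosyltransferases, stood at 10.44 and 11.54, and at 8 and 9.51. The remaining gene was over 1 lower, HYH, a bZIP factor of light signalling, at 8.92 and 6.4. For 3 of the 6 the signal on A was under 4, where differences have no exact size.

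Other large increases on B were AT3G22240, from 7.58 to 12.7, AT1G73600, from 6.15 to 11.04, AT1G19960, from 6.03 to 10.22, AT5G52760, from 2.42 to 6.95, and AT1G68600, from 3.52 to 7.39. COR15A, which encodes a cold-regulated chloroplast protein, had 6.61 on A and 10.71 on B. In its list of 14 genes 4 were measured, and COR15B (5.11 and 7.13) was also higher, while COR47 (10.54 and 10.23) differed by less than 1 and LTI30 (5.44 and 4.24) was lower. GI, the only measured gene of the circadian clock list, had 3.99 and 7.4. AT5G52760, AT1G68600 and GI were under 4 on A, so the sizes of their differences are not exact. PRL and 3 of 8 detected histone genes were over 1 higher on B: HTB1 (10.33 and 11.41), AT2G28720 (6.19 and 7.22) and AT3G09480 (5.79 and 7.39).

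Genes of the dark and sugar starvation list, several of them for amino acid breakdown, were lower on B. MCCA, for a subunit of the methylcrotonoyl-CoA carboxylase that degrades leucine, had 10.55 on A and 7.23 on B. AKINBETA1, for a subunit of the SnRK1 energy-sensing kinase, had 10.53 and 8.06, and ETFQO, which passes electrons from this breakdown to the respiratory chain, 8.56 and 6.9. MCCB (9.12 and 8.26) and IVD (6.91 and 6.05) were lower by less than 1. All 5 measured genes of this list of 15 were thus lower on B, 3 of them by over 1. All 8 measured autophagy genes were lower too, against 52.3% of all named genes, with a median difference of -0.44. They were led by ATG8E (8.53 and 6.78) and ATG8F (11 and 9.81). All but ATG3 are copies of ATG8, so they cannot stand for the whole pathway.

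The remaining large decreases were AT5G42760, from 6.23 on A to 2.68 on B, AT3G54510, from 6.19 to 2.66, AT1G49200, from 6.15 to 2.63, AT1G68440, from 9.91 to 6.49, and AT3G22060, from 8.16 to 4.8. CYP71B22, a cytochrome P450 gene, had 6.43 and 3.08, AT2G41250 11.32 and 8.15, AT3G15310 5.43 and 2.28, and AT1G54740 7.58 and 4.54. Of these, 5 were under 4 on B, so the sizes of their differences are not exact.

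The strongest gene groups differed little in size but mostly in one direction. Of 66 plastid-encoded genes detected on at least 1 array, 62 were lower on B, against 52.3% of all named genes, with a median difference of -0.40, and 2 were lower by over 1. All 11 nuclear photosynthesis genes and all 6 chlorophyll genes were lower, with medians of -0.43 and -0.44 and 0 past 1. Cytosolic ribosomal protein genes had 90 of 118 higher on B, against 47.2% of all named genes, with a median of 0.10 and 1 member over 1 higher, AT2G32220. Quantile normalization or median centring of the 2 arrays kept the sign of these medians. The 6 control pairs of a 3′ and a 5′ probe set also differed between the arrays. The 3′ signal minus the 5′ signal was 1.59 on A and 1.49 on B for GAPDH, 1.72 and 1.70 for ubiquitin and 4.82 and 5.01 for actin. In the array's second set of controls it was -0.07 and -0.18 for GAPDH, -0.35 and -0.63 for ubiquitin and 1.31 and 1.1 for actin. It was thus lower on B for 5 of the 6 pairs, by up to 0.28, and the part of this in the differences was not tested. The control for 25S ribosomal RNA had 6.22 on A and 7.01 on B.

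The same letters were compared within the other 3 genotypes, which the choice of these genes did not use. Of the 738 probe sets over 1 higher on Col-0 B, 325 were over 1 higher on B in 35S:GIF1, 291 in rGRF3 and 315 in rGRF3x35S:GIF1, or 44%, 39.4% and 42.7%, against 3.18%, 3.62% and 3.56% of all 13981 probe sets. Of the 663 lower ones, 172, 123 and 157 were over 1 lower, or 25.9%, 18.6% and 23.7%, against 2.14%, 1.65% and 2.06%. By direction alone, 93.9%, 90.8% and 92.5% of the 738 were higher on B in these genotypes, against 49%, 47.8% and 45.3% of all 13981. Of the 663, 90.2%, 79.9% and 89.9% were lower, against 49.9%, 51.2% and 53.6%. All of the 20 named genes but CYP71B22 had the Col-0 direction in all 3 other genotypes, counted at any size. The sizes varied widely. UF3GT had 4.85 in 35S:GIF1, 3.99 in rGRF3 and 4.69 in rGRF3x35S:GIF1. AT3G15310 had -0.045 in rGRF3 and -0.055 in rGRF3x35S:GIF1, against -3.15 in Col-0. AT5G42760 had -0.185 in rGRF3x35S:GIF1, against -3.55 in Col-0. The share of all probe sets that keep their direction in all 3 was not computed. What the letters mark is not given in the labels.

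**Figure D5:**
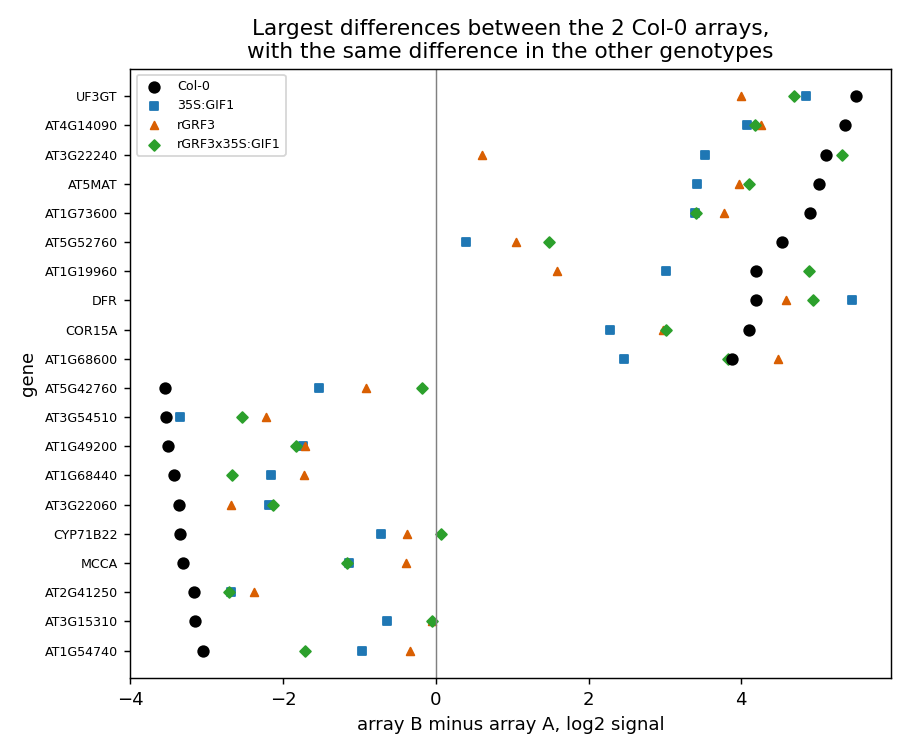
Array B minus array A on the log2 scale (horizontal axis) for the 10 named genes with the largest increase and the 10 with the largest decrease in Col-0 (black), beside the same difference in 35S:GIF1, rGRF3 and rGRF3x35S:GIF1. Of the 20 genes, 19 have the Col-0 direction in all 3 other genotypes, counted at any size of difference.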

How the data were processed

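Total RNA of 2 Col-0 samples was measured on 1 ATH1 array each. The authors deposited values on a log2 scale. Per the submitters' processing notes GCRMA, which corrects background, normalises and summarises probes, and limma were used; their versions and a genome build are not given there. Values of both Col-0 arrays have more decimals than those of the other 6, for a reason the labels do not state. The 64 control probe sets were left out of the ranking. Genes were named from the platform annotation, and the TAIR10.1 gene table held 13436 of the 13513 probe sets with 1 gene. From the deposited log2 values means, ranks, floor shares and B minus A differences were computed with pandas 2.3.3, scipy 1.17.1, numpy 2.4.6 and, for plots, matplotlib 3.10.9 under Python 3.11.15. With 2 arrays of 1 group no test was made, and so few arrays limit the precision. Named genes were the 25 strongest, the up to 4 highest and 2 lowest of a gene list, and the 10 largest differences per direction; others are said to be picked later, or were named as list members past a threshold or as markers. Members and the 19 lists and 29 families were chosen with earlier results of these data known.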

Additional observations from a re-analysis of the deposited data

How the results depend on the processing

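The floor count stayed within 1.5 times of its value when either array was left out or the floor was set at 0.01 or 0.5. It also did so without the 1061 probe sets with suffix s_at or x_at, of which 283 list a single gene. The detected count stayed within 1.5 times of its value at detection levels of 3, 5 or 6. Rank agreement fell to 0.942 over detected probe sets, where the shared floor no longer enters. The number of shared top genes follows the list size, with 46 of 50 and 424 of 500. With a threshold of 0.5 in place of 1, 2147 probe sets were higher and 2215 lower on B, and with 2 these were 195 and 125. Counted below log2 3, the share of pseudogenes was 96% and of protein-coding genes 35.4%, a wider definition by construction. On single arrays, an alternative added after seeing the data, these shares ranged from 91.5% to 91.8% and from 30.9% to 31%. Requiring detection on both arrays, also added later, left 3 of 6 anthocyanin genes over 1 higher and 1 of 2 plastid genes over 1 lower, because genes under 4 on 1 array drop out. No paired analysis was possible because both arrays belong to 1 group. The planned share of promoters with a TATA motif was not run, since no promoter table was used here. Values close to the floor have no exact size.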
